A study of Homo sapiens with 9 samples.

Results

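The comparison described here sets LX-2 cells given an siRNA against LOXL1 beside LX-2 cells given a negative control siRNA, 3 libraries in each group and 6 of the 9 libraries of the series. The libraries were assigned by their titles. LX-2 is an established line of human hepatic stellate cells, and every group, the controls included, had received TGFβ1. The LOXL1 siRNA was used at 25 nM for 48 hours with TGFβ1 at 10 ng/ml, and so was an LOX siRNA that forms the third group (3 libraries). For the control libraries the labels, as read here, give no siRNA dose, TGFβ1 concentration or treatment time. There is no group without TGFβ1, 1 cell line stands for the cell type, and nothing in the labels ties the 3 libraries of a group to separate cultures. The p-values therefore weigh differences against variation among libraries that may be technical in part. RNA was sequenced on the BGISEQ-500, and the values are FPKM, fragment counts divided by the length of the transcript and by library size.

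Hepatic stellate cells store retinoids in the healthy liver and turn into matrix-producing myofibroblasts when the liver is injured, a change that TGFβ1 drives. LOXL1 is a secreted copper enzyme of the lysyl oxidase family. These enzymes oxidise lysines in collagen and elastin, the first step in cross-linking the fibres, and LOXL1 is known above all for its part in elastic fibres.

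The base composition of a transcript enters the results below, so the first 60 coding bases of 7 genes are printed here. They are LOXL1 and the 3 most abundant genes of the lowest and of the highest decile of genes by GC content. They come from GENCODE release 29 on GRCh38, 5′ to 3′, with G and C in capitals. NAP1L1 and HNRNPA2B1, a histone chaperone and a splicing protein from the lowest decile, had 22 G or C each among the 60 bases. ATP5E, a small subunit of the ATP synthase, also belongs to that decile, but its coding start held 33, so a coding start need not follow the whole transcript. From the highest decile, MT2A (a metallothionein) held 40, PTMS (parathymosin) 36, and FLNA (filamin A, an actin cross-linker) 46, and LOXL1 held 46.
ATP5E: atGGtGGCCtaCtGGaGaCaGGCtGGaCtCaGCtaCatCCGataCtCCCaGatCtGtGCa
NAP1L1: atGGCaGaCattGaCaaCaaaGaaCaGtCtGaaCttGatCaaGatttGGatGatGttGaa
HNRNPA2B1: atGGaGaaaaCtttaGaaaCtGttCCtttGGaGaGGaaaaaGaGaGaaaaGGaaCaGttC
MT2A: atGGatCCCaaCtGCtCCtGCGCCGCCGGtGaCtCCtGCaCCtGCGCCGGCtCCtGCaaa
PTMS: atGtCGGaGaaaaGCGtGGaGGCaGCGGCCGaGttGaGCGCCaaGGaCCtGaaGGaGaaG
FLNA: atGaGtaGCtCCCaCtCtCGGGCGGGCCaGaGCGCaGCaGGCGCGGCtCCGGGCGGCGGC
LOXL1: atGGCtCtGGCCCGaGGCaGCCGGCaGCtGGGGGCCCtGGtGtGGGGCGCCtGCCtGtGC

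LOXL1 mRNA was lower in every knockdown library than in every control library. LOXL1 (chromosome 15, 73926458 to 73952141, plus strand) stood at 5.66, 7.26 and 7.49 FPKM with LOXL1 siRNA, against 12.17, 13.50 and 11.29 FPKM with control siRNA. The groups did not overlap, and replicate 1 of the knockdown held the least LOXL1. The mean was 6.80 ± 0.997 FPKM with LOXL1 siRNA and 12.3 ± 1.11 FPKM with control siRNA (SD, n = 3 each), so the mean fell by 44.8%. The difference of log2(FPKM + 1), the scale of every fold change given here, was -0.78 (SE 0.09; limma with Benjamini-Hochberg adjustment over 11808 genes, adjusted p = 0.00432). The call was lost when low genes were kept in the test (limma, adjusted p = 0.0632). LOXL1 overlaps the antisense gene LOXL1-AS1, and strand-aware counting is not stated in the sources used here. Cells given LOX siRNA kept 11.7 ± 0.959 FPKM of LOXL1, and the direct difference between the siRNAs was -0.71 (SE 0.09; limma, adjusted p = 0.00630).

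The other lysyl oxidases did not pass the test. LOX, the founding enzyme of the family, stood at 51.91, 49.50 and 51.91 FPKM with LOXL1 siRNA, against 47.69, 42.79 and 48.05 FPKM with control siRNA. All 3 knockdown values lay above the controls, but the difference of 0.14 (SE 0.06) had an adjusted p of 0.456 in limma, and it was 0.09 without control replicate 2. LOXL2 averaged 87.3 ± 1.47 FPKM with LOXL1 siRNA and 88.3 ± 5.46 FPKM with control siRNA (log2 fold change -0.01, SE 0.04). LOXL3 averaged 2.37 ± 0.267 and 2.39 ± 0.222 FPKM in the same groups, and LOXL4 averaged 0.963 ± 0.169 and 0.980 ± 0.149 FPKM.

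Of 11808 genes tested, 9 passed an adjusted p of 0.05, which is 0.0762% of genes. HAS2 and C11orf74 rose, and LOXL1, NPTXR, AKIRIN1, CDC23, VOPP1, AGAP9 and MICB fell. The count was 14 without LOXL1 siRNA replicate 3, with 6 of these 9 among them, and 83 with library weights. Without adjustment, 1208 genes had a p under 0.05, 451 higher and 757 lower with LOXL1 siRNA. That lean towards lower genes (62.7%) depended on the scaling, being 52.4% with median-ratio scaling. The groups did not overlap for 1690 genes, 14.3% of those tested, of which 678 were higher and 1012 lower with LOXL1 siRNA.

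**Figure D1:**
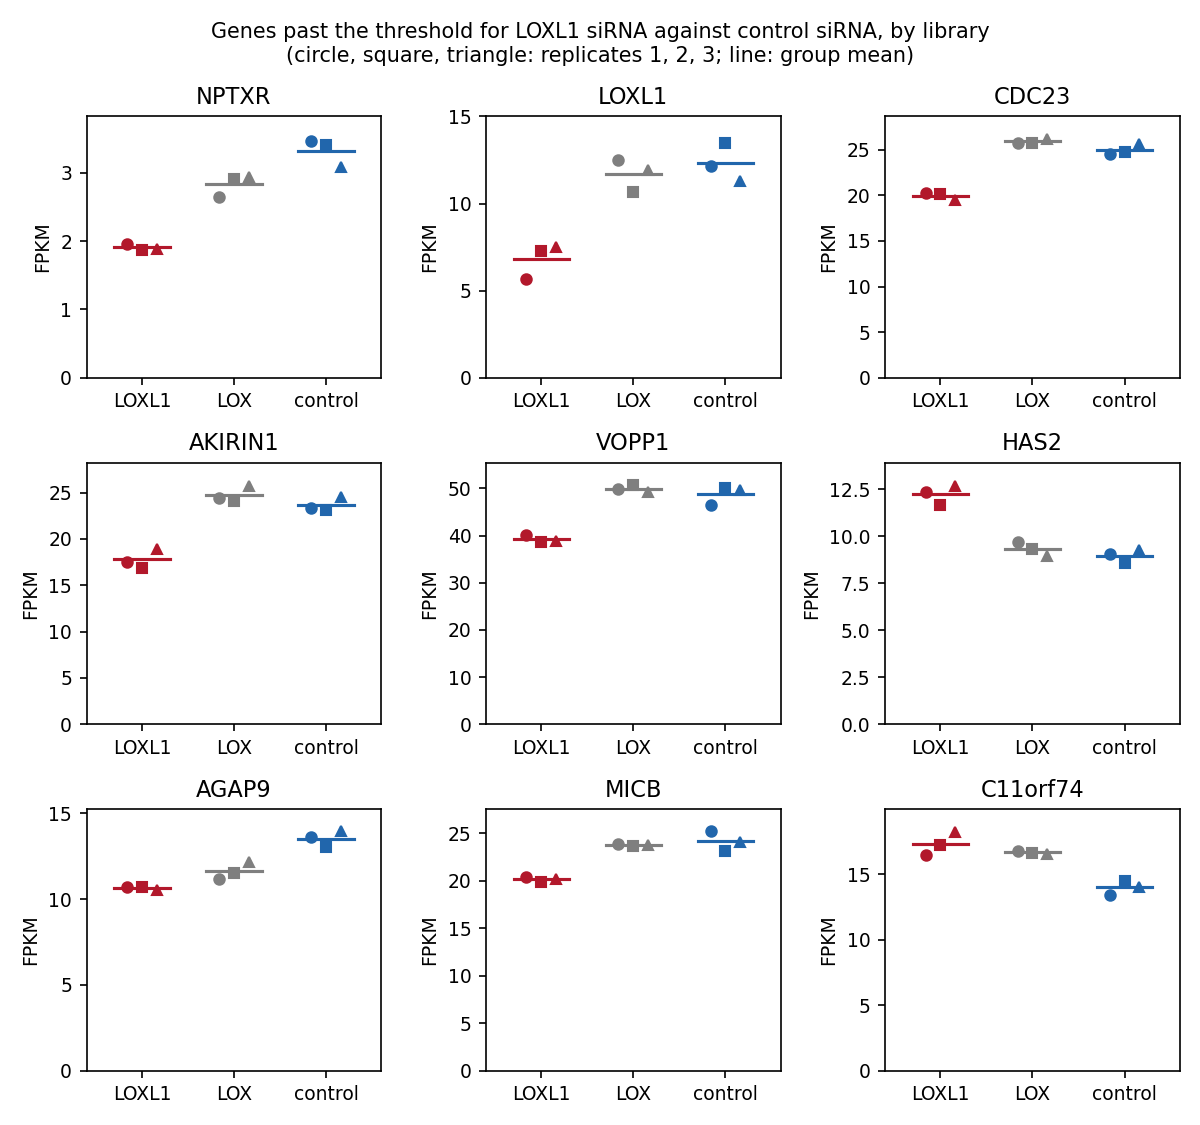
FPKM of the 9 genes past the threshold in each library, with LOXL1 siRNA, LOX siRNA and control siRNA from left to right; symbols stand for replicates 1 to 3 and lines for group means, and each axis starts at 0. HAS2 and C11orf74 lie higher and the other 7 genes lower with LOXL1 siRNA than with control siRNA, while C11orf74 lies near 16.7 FPKM with LOX siRNA too.

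Among matrix genes, HAS2 rose. HAS2 (chromosome 8) encodes a membrane enzyme that spins out hyaluronan, the large unsulfated sugar chain of the matrix. It stood at 12.34, 11.64 and 12.67 FPKM with LOXL1 siRNA, against 9.03, 8.56 and 9.26 FPKM with control siRNA. Every knockdown library lay above every control, and the 9.33 ± 0.370 FPKM of LOX siRNA lay near the controls. The log2 fold change was 0.41 against control (SE 0.05; limma, adjusted p = 0.00432) and 0.36 against LOX siRNA (SE 0.05; limma, adjusted p = 0.0146). HAS2 overlaps the antisense gene HAS2-AS1, with the same limit of strand as LOXL1. Of 12 hyaluronan genes tested HAS2 was the 1 that passed, and the class median was 0.0035. VCAN, which encodes the hyaluronan-binding proteoglycan versican, averaged 18.3 ± 0.765 FPKM with LOXL1 siRNA and 16.1 ± 0.504 FPKM with control siRNA (log2 fold change 0.17, SE 0.05; limma, adjusted p = 0.273).

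The cell-cycle gene CDC23 fell. CDC23 is a subunit of the anaphase-promoting complex, the ubiquitin ligase that lets chromosomes separate. It stood at 20.25, 20.17 and 19.45 FPKM with LOXL1 siRNA, against 24.50, 24.75 and 25.59 FPKM with control siRNA. The groups were far apart for their spread, with a log2 fold change of -0.31 (SE 0.04; limma, adjusted p = 0.00432) and a difference from LOX siRNA of -0.36 (SE 0.04; limma, adjusted p = 0.00152). CDC23 overlaps KIF20A in the annotation. The other 15 tested members of the complex did not pass, 8 of the 16 lay below 0, and the median was -0.0065. ANAPC11, its RING subunit, came nearest, with 19.7 ± 1.49 FPKM with LOXL1 siRNA and 24.2 ± 0.746 FPKM with control siRNA (log2 fold change -0.29, SE 0.06; limma, adjusted p = 0.115).

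AKIRIN1, which encodes a small nuclear protein, fell as well. It stood at 17.52, 16.91 and 18.96 FPKM with LOXL1 siRNA, against 23.31, 23.14 and 24.56 FPKM with control siRNA. The log2 fold change was -0.39 (SE 0.05; limma, adjusted p = 0.00432), and against LOX siRNA it was -0.45 (SE 0.05; limma, adjusted p = 0.00152). Its paralog AKIRIN2, a nuclear cofactor of transcription, averaged 33.4 ± 1.51 FPKM with LOXL1 siRNA and 32.1 ± 1.59 FPKM with control siRNA and did not pass.

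VOPP1, a gene of vesicle membranes, stood at 40.10, 38.60 and 38.85 FPKM with LOXL1 siRNA, against 46.55, 50.09 and 49.65 FPKM with control siRNA. It fell, with a log2 fold change of -0.31 (SE 0.04; limma, adjusted p = 0.00432) and a difference of -0.34 from LOX siRNA (SE 0.04; limma, adjusted p = 0.00192). NPTXR, a receptor of the neuronal pentraxins, is a low gene here. It stood at 1.96, 1.87 and 1.89 FPKM with LOXL1 siRNA, against 3.46, 3.41 and 3.08 FPKM with control siRNA. The mean of NPTXR fell by 42.5% (log2 fold change -0.57, SE 0.07; limma, adjusted p = 0.00432), and LOX siRNA lay between at 2.83 ± 0.163 FPKM.

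The remaining calls lay nearer the threshold. MICB, a stress-induced ligand of the NKG2D receptor of natural killer cells, fell to 20.39, 19.82 and 20.17 FPKM with LOXL1 siRNA, against 25.22, 23.17 and 24.02 FPKM with control siRNA (log2 fold change -0.25, SE 0.04; limma, adjusted p = 0.0490). The table places MICB on an alternate contig of chromosome 6. Of the other 5 NKG2D ligands tested none passed, with log2 fold changes of -0.01 for MICA (SE 0.05) and -0.02 for ULBP3 (SE 0.08). C11orf74 rose to 16.48, 17.23 and 18.27 FPKM with LOXL1 siRNA, against 13.43, 14.53 and 14.07 FPKM with control siRNA (log2 fold change 0.29, SE 0.05; limma, adjusted p = 0.0490). C11orf74 overlaps RAG2, and its difference from LOX siRNA was 0.05 (SE 0.05; limma, adjusted p = 0.698). AGAP9 averaged 10.6 ± 0.102 FPKM with LOXL1 siRNA and 13.5 ± 0.454 FPKM with control siRNA (log2 fold change -0.32, SE 0.05; limma, adjusted p = 0.0179), but near-identical copies of it make the level uncertain. MICB and C11orf74 were each lost in 8 of the 9 fits that left out 1 library (highest adjusted p of 0.225 in limma, without control replicate 1). AGAP9 was lost in 5 of those fits, with 0.121 as the highest adjusted p.

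Between LOXL1 siRNA and LOX siRNA, 25 genes passed (0.212% of genes), 8 higher and 17 lower with LOXL1 siRNA. Of the 9 genes above, 7 passed here as well, while AGAP9 (adjusted p = 0.316) and C11orf74 did not, by limma with Benjamini-Hochberg adjustment. The comparisons share the LOXL1 siRNA libraries, so the shared calls are not independent. The count of 25 was 5 without LOX siRNA replicate 2 or replicate 3, 6 without LOXL1 siRNA replicate 1, and 56 without control replicate 2, which enters only through the shared estimate of spread.

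The 8 next genes by p in each direction did not pass; they were taken among genes averaging 5 FPKM or more whose groups stood apart. Those higher with LOXL1 siRNA had log2 fold changes of 0.15 to 0.27. LCP1, an actin-bundling plastin, averaged 57.6 ± 0.692 FPKM with LOXL1 siRNA and 49.5 ± 2.00 FPKM with control siRNA (log2 fold change 0.21, SE 0.04; limma, adjusted p = 0.0732). NRAS, a RAS GTPase, averaged 32.9 ± 0.234 and 28.9 ± 0.885 FPKM in the same groups, and FERMT2, an integrin activator, 65.1 ± 0.762 and 58.5 ± 0.648 FPKM. The others were ELL2, TAF13, KRT34, APITD1 and COQ3. Those lower had log2 fold changes of -0.32 to -0.23. ITGB5, the integrin β5 chain, averaged 8.80 ± 0.196 FPKM with LOXL1 siRNA and 10.8 ± 0.503 FPKM with control siRNA (log2 fold change -0.27, SE 0.05; limma, adjusted p = 0.0732). The serine carrier SFXN1 averaged 17.1 ± 1.11 and 21.2 ± 1.31 FPKM in the same groups. VASN, SHISA5, SFXN3, ADA and BBC3 were also among them.

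The fold change of a gene followed the GC content of its transcript. Over the 11760 tested genes with a GC value, Spearman's correlation between the log2 fold change and GC content was -0.48, given as a description since genes are not independent replicates. Across deciles of rising GC content the median log2 fold change went down in every step, being 0.05 in the lowest decile and -0.06 in the highest. In the lowest decile 99 genes were higher and 5 lower at an unadjusted p under 0.05, and in the highest decile 4 were higher and 187 lower. The 3 chromosomes highest in median GC content, 19, 22 and 16, had median log2 fold changes of -0.03, -0.04 and -0.03, while chromosome 13, which is low in GC, had 0.03. Without control replicate 2 these medians were -0.0091, -0.03, -0.02 and -0.0030 in the same order.

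The size of the trend depended on the control library. Spearman's correlation was -0.70 when the LOXL1 siRNA mean was set against control replicate 2 alone. It was -0.18 against control replicate 1, -0.01 against control replicate 3, and -0.12 without control replicate 2. For LOXL1 siRNA against LOX siRNA, a difference that uses no control library, it was -0.30. For LOX siRNA against all controls it was -0.18. Relative to the other 2 controls, control replicate 2 had a median difference of -0.15 (log2) in the lowest decile and 0.11 in the highest. Without it the medians of the LOXL1 siRNA fold change were 0.0015 in the lowest and -0.03 in the highest. The 3 knockdown libraries had medians of 0.04, 0.04 and 0.07 in the lowest decile and -0.09, -0.05 and -0.05 in the highest, against the mean of all controls. With transcript length, the correlation was 0.08 for LOXL1 siRNA against control, but it was -0.08 without control replicate 2, and 0.19, 0.08 and -0.10 in the 3 knockdown libraries.

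**Figure D2:**
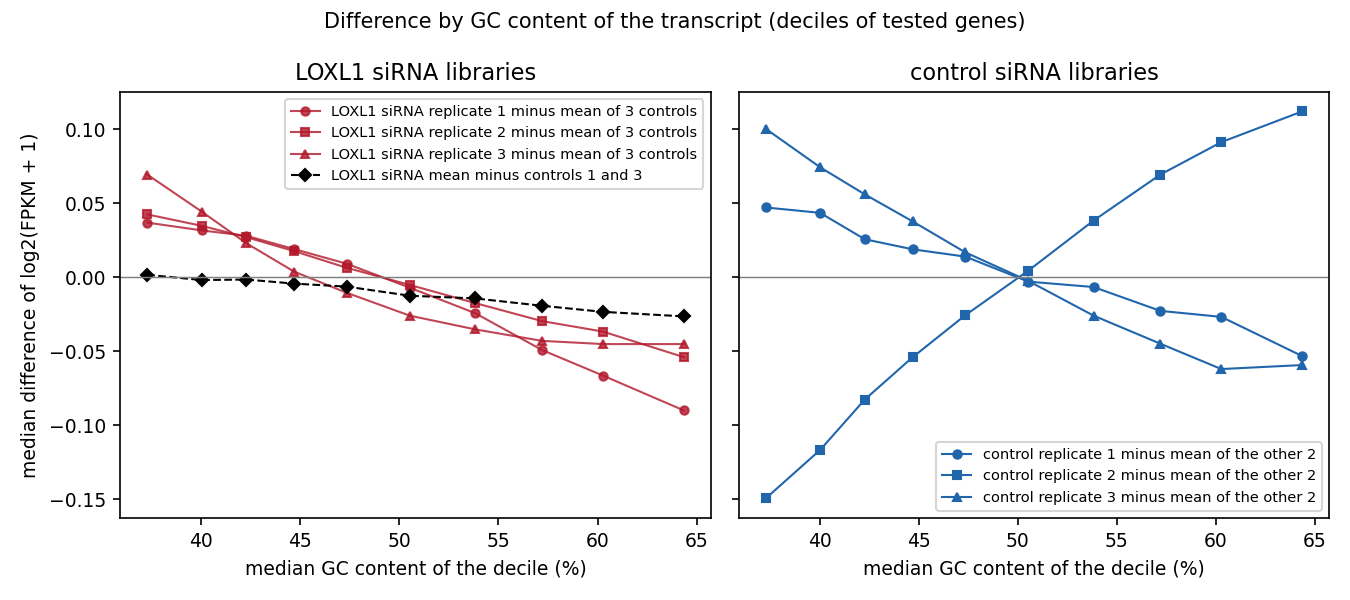
Median difference of log2(FPKM + 1) (vertical) by the median GC content of each decile of tested genes (horizontal, percent). Left, each LOXL1 siRNA library minus the mean of 3 controls, and, dashed, the LOXL1 siRNA mean minus controls 1 and 3; right, each control minus the mean of the other 2. The lines of the knockdown libraries slope down, and control replicate 2 slopes up to 0.11. The dashed line slopes down less, from 0.0015 in the lowest decile to -0.03 in the highest.

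With each library's trend on length and GC content removed, 19 of 11760 genes passed (0.162%), 3 higher and 16 lower. All 9 genes described above were among them. The 10 others were VASN, SFXN1, LCP1, ANKFY1, FAM72C, PDCD1LG2, FAM206A, TMPO, OSGEPL1 and MSMO1. TMPO, a lamina-associated protein of the nuclear envelope, stood at 63.09, 63.35 and 63.89 FPKM with LOXL1 siRNA, against 73.89, 67.15 and 74.46 FPKM with control siRNA. Control replicate 2 was the lowest control for TMPO, and the log2 fold change was -0.18 as deposited (limma, adjusted p = 0.164) and -0.20 with the trends removed (limma, adjusted p = 0.0146). PDCD1LG2, a ligand of the PD-1 receptor, had -0.33 with the trends removed (SE 0.06; limma, adjusted p = 0.0490). MSMO1, an enzyme of cholesterol synthesis, was the 1 of the 10 whose groups overlapped, at 72.44, 74.37 and 77.27 FPKM with LOXL1 siRNA, against 83.46, 75.12 and 83.65 FPKM with control siRNA. The level of FAM72C, which has near-identical copies, is uncertain.

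Medians of whole gene classes lay close to 0, with few members past the threshold. The median over all genes tested was -0.0058, and 53.3% of genes lay below 0. Only LOXL1, HAS2, CDC23, MICB, NPTXR and AKIRIN1 passed among the members of the 46 lists, so the other counts describe directions and are not calls. Of 20 tested collagen chains, 18 lay below 0 (median -0.08) and 0 passed, with 5 lower and 1 higher at an unadjusted p under 0.05. COL4A1, a basement membrane chain, averaged 29.3 ± 0.988 FPKM with LOXL1 siRNA and 33.4 ± 1.35 FPKM with control siRNA (log2 fold change -0.18, SE 0.06), and COL18A1, the source of endostatin, had -0.14 (SE 0.05). Of all 11808 genes, 757 were lower and 451 higher at that p. The collagen median was -0.14, -0.14 and -0.02 in LOXL1 siRNA replicates 1, 2 and 3 against the control mean, so replicate 3 lay near 0. It was -0.06 without control replicate 2, -0.03 with trends removed, and -0.13 to -0.01 over all 21 alternatives. Its transcripts had a median GC content of 57.4%, against 48.7% for all genes. In the GC decile that holds that value (55.5% to 58.7% GC), 74.1% of genes lay below 0.

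Members of several other lists lay mostly below 0, and 4 of those lists are described here. Lists outside the matrix leaned the same way, such as histones (33 of 49 below 0, median -0.03) and solute carriers (121 of 201, median -0.02). Over all genes 53.3% lay below 0, but the share followed GC content. By rising GC content it was 58.2% in decile 6 (48.7% to 52.1% GC), 74.1% in decile 8 (55.5% to 58.7%) and 79.3% in decile 9 (58.7% to 62.1%). Median GC content was 57.3% for histones, 57.0% for elastic fibre genes and 51.4% for solute carriers. It was 50.7% for laminin chains and 50.8% for tripartite motif genes. Among matrix lists the hyaluronan genes (above) and the ADAM and ADAMTS proteases did not lean below 0 (15 proteases tested, 7 below 0, median 0.02; -0.02 without control replicate 2). Of 9 laminin chains, 8 lay below 0 (median -0.07; -0.07 without control replicate 2; -0.05 with trends removed), and LAMA5, the α5 chain, had a log2 fold change of -0.17 (SE 0.06). Of 12 elastic fibre genes, the class nearest to the function of LOXL1, 10 lay below 0 (median -0.06; -0.03 without control replicate 2 and also with trends removed). EFEMP2, which encodes fibulin-4, averaged 43.3 ± 2.50 FPKM with LOXL1 siRNA and 47.8 ± 3.27 FPKM with control siRNA (log2 fold change -0.14, SE 0.05). LTBP4, a latent TGFβ-binding protein of elastic fibres, had -0.12 (SE 0.05). Of 18 semaphorins and plexins 14 lay below 0 (median -0.06; -0.02 without control replicate 2), with a median of -0.0067 once the trends were removed and a median GC content of 61.1%. Of 42 tripartite motif genes 32 lay below 0 (median -0.03; -0.04 without control replicate 2; -0.02 with trends removed).

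Members of some other lists lay mostly above 0. All 8 tested CCT genes, subunits of the chaperonin that folds actin and tubulin, lay above 0 (median 0.04; 0.02 without control replicate 2; 0.04 with trends removed). Without control replicate 2, 7 of the 8 lay above 0, and 7 did with trends removed. CCT2 stood at 110.89, 112.56 and 112.59 FPKM with LOXL1 siRNA, against 104.01, 99.05 and 108.88 FPKM with control siRNA. Those groups did not overlap, and the log2 fold change was 0.11 (SE 0.04; limma, adjusted p = 0.389). Of 61 heat shock and DNAJ genes 41 lay above 0 (median 0.03; 0.01 without control replicate 2). Of 20 centromere protein genes 14 lay above 0 (median 0.05), but the median was 0.0078 without control replicate 2, and CENPB, a DNA-binding centromere protein, had -0.14 (SE 0.04). Of 78 mitochondrial ribosomal protein genes 47 lay above 0, with a median of 0.01 that was 0.03 without control replicate 2 and with trends removed. Of 461 zinc finger genes 246 lay above 0, and their median of 0.0047 was -0.02 without control replicate 2.

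LOX siRNA, set against the same control libraries, gave medians of 0.05 for CCT genes, with 0 of 8 below 0, and -0.05 for collagen chains, with 15 of 20 below 0. Its medians were -0.03 for laminin chains, -0.03 for elastic fibre genes and -0.04 for semaphorins and plexins, with 7 of 9, 9 of 12 and 15 of 18 below 0. Over all 11808 genes, 5647 lay below 0 with LOX siRNA. The shared controls enter both sets of values.

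**Figure D3:**
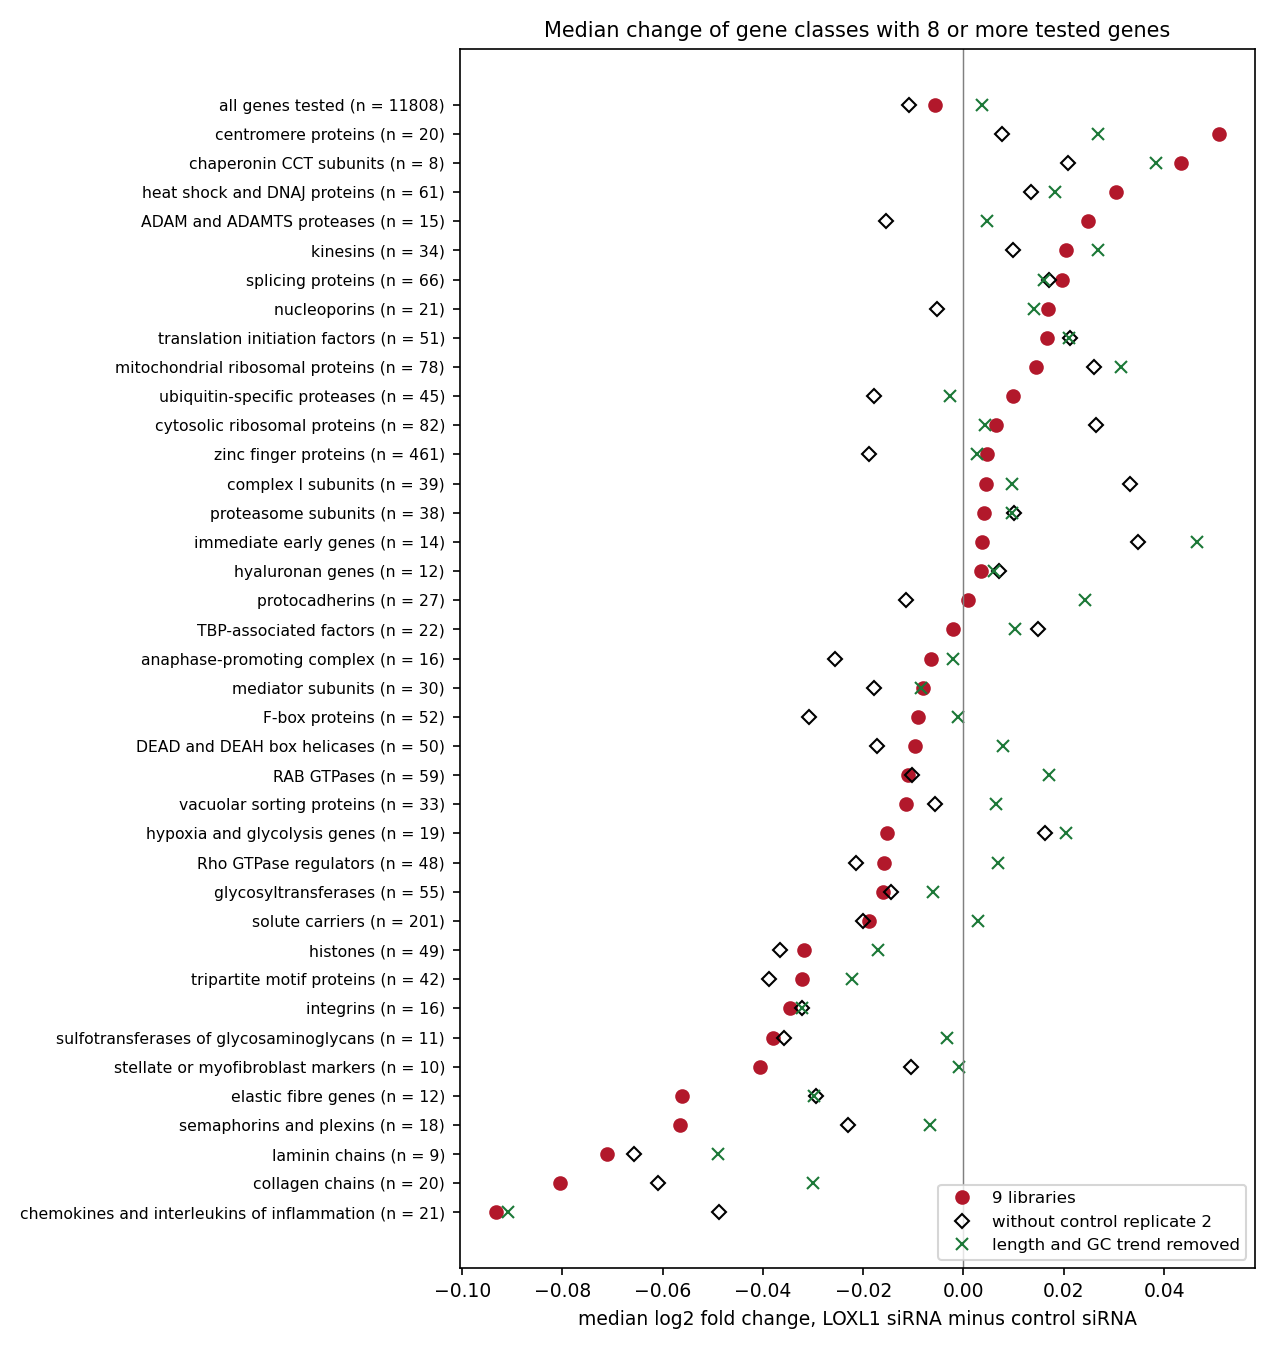
Median log2 fold change of LOXL1 siRNA minus control siRNA (horizontal) for each class with 8 or more tested genes (down the page), with all genes at the top. Circles use 9 libraries, diamonds leave out control replicate 2 and crosses have length and GC trends removed. Collagen chains have a median of -0.08, -0.06 and -0.03 in that order, and the median of CCT subunits stays above 0 under all 3.

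The median SD per gene of log2(FPKM + 1) was 0.0566 with LOXL1 siRNA, 0.0490 with LOX siRNA and 0.0704 with control siRNA. With the trends removed it was 0.0531, 0.0476 and 0.0515 in the same order. More genes lay far from their partners in the LOXL1 siRNA libraries. Among 8980 genes with a mean of at least 5 FPKM, those over 0.5 (log2) from the mean of the other 2 libraries of the group numbered 16, 6 and 23 in LOXL1 siRNA replicates 1, 2 and 3, against 5, 1 and 3 with LOX siRNA and 3, 9 and 4 with control siRNA. In replicate 1, 14 of the 16 lay below its partners, and in replicate 3, 21 of the 23 lay above. The counts are linked, because each library also enters the mean that its partners are set against. The same gene can therefore count in more than 1 library. LOXL1 siRNA replicates 1 and 3 differed by an SD of 0.155 across genes, replicates 2 and 3 by 0.140, and replicates 1 and 2 by 0.121. The range was 0.121 to 0.156 between control libraries and 0.115 to 0.125 between LOX siRNA libraries. With the trends removed the LOXL1 siRNA values were 0.150, 0.137 and 0.118 in the same order. Control libraries then differed by 0.116 to 0.127 and LOX siRNA libraries by 0.114 to 0.123.

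Inflammatory genes led the farthest genes of replicates 1 and 3. CCL2, the monocyte chemoattractant, stood at 15.31, 24.11 and 63.99 FPKM in LOXL1 siRNA replicates 1, 2 and 3, against 36.63, 36.21 and 27.69 FPKM with control siRNA. CXCL8, the neutrophil chemokine, stood at 19.59, 29.76 and 70.74 FPKM with LOXL1 siRNA, against 38.23, 35.23 and 30.85 FPKM with control siRNA. In both genes replicate 3 lay above and replicates 1 and 2 below every control, so the group means hide a wide spread. IL6 stood at 13.83, 16.06 and 38.92 FPKM with LOXL1 siRNA, against 22.38, 25.15 and 17.66 FPKM with control siRNA. CXCL1, another neutrophil chemokine, stood at 23.18, 30.51 and 57.69 FPKM with LOXL1 siRNA, against 37.91, 40.23 and 32.84 FPKM with control siRNA. The NF-kB-induced dismutase SOD2 followed the same pattern, at 68.62, 87.28 and 135.20 FPKM with LOXL1 siRNA, against 103.75, 104.83 and 94.59 FPKM with control siRNA. Log2 fold changes of these genes were small for their error, being -0.20 for CCL2 (SE 0.34) and 0.0018 for CXCL8 (SE 0.30).

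**Figure D4:**
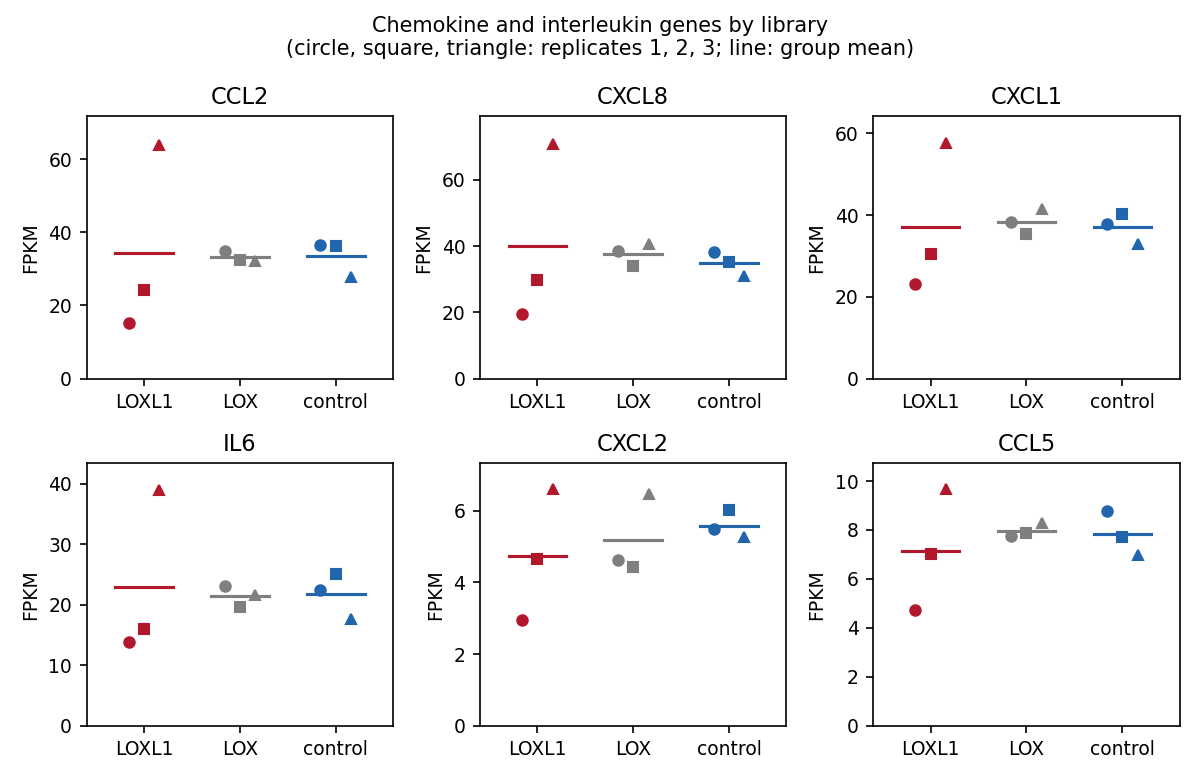
FPKM of 6 chemokine and interleukin genes in each library, with LOXL1 siRNA, LOX siRNA and control siRNA from left to right; symbols stand for replicates 1 to 3, lines for group means, and each axis starts at 0. In each panel replicate 3 is the highest and replicate 1 the lowest LOXL1 siRNA library, with CCL2 at 63.99 and 15.31 FPKM.

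A list of 21 tested chemokine, interleukin and related genes was written with earlier results of these data known. It includes CCL2, CXCL8, CXCL1 and IL6, which were chosen above for their distance from partner libraries. The counts therefore describe the list and are no separate support for the pattern. Replicate 3 was the highest LOXL1 siRNA library for 21 of 21 and replicate 1 the lowest for 20 of 21, where over all genes the shares were 36.1% and 37.3%. Replicate 1 lay below all controls for 21 of the 21 genes, and replicate 3 above all controls for 16, where over all 11808 genes these counts were 3473 and 2723. The class median was -0.39, -0.18 and 0.27 in replicates 1, 2 and 3 against the control mean. The summed level was 584, 671 and 939 FPKM in the 3 knockdown libraries, 737 to 787 FPKM with LOX siRNA and 700 to 804 FPKM with control siRNA. In bulk RNA, fewer cells of a kind and less RNA per cell cannot be told apart. Cytosolic ribosomal protein genes differed between the same libraries, with medians of -0.04, -0.0051 and 0.07 over 82 genes.

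Other genes set single libraries apart. SULT1A4 stood at 3.63, 3.84 and 9.72 FPKM with LOXL1 siRNA, against 9.52, 11.32 and 6.07 FPKM with control siRNA, but it has a near-identical copy and its level is uncertain. ERCC5, a DNA repair nuclease, was lowest in replicate 2 among the LOXL1 siRNA libraries, at 6.12 FPKM, against 9.62 and 8.14 FPKM in its partners. ZC3H12A, which encodes the regnase that cleaves cytokine mRNA, was highest in replicate 3, at 10.64 FPKM, against 5.46 and 6.57 FPKM in its partners.

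The cells carried markers of their type. Of 16 stellate or myofibroblast genes 10 were tested, VIM standing at 1439.81 FPKM or more, COL1A1 at 209.04 FPKM or more and TAGLN at 543.57 FPKM or more in all 9 libraries, while DES, LRAT, DCN and LUM stayed under 0.3 FPKM. PDGFRB, the receptor of platelet-derived growth factor, averaged 6.34 ± 0.252 FPKM with LOXL1 siRNA and 7.44 ± 0.269 FPKM with control siRNA (log2 fold change -0.20, SE 0.06; limma, adjusted p = 0.282). All 6 hepatocyte and all 6 endothelial markers in the table were too low to be tested, ALB at most 0.02 and CDH5 at most 0.01 FPKM. Of the macrophage markers, CD163 was at most 0.04 FPKM and CD68, which other cells express too, 38.23 to 45.02 FPKM, with LYZ at 2.45 to 3.47 and CD14 at 1.31 to 2.45 FPKM. Of the cholangiocyte markers, KRT19 was at most 0.23 and EPCAM at most 0.1 FPKM, while KRT7 stood at 2.43 to 4.09 and SOX9 at 10.7 to 13.36 FPKM.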

How the data were processed

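RNA-seq libraries of LX-2 cells were made in 3 groups of 3. The authors deposited FPKM values per gene, per the file headers. TopHat2 2.0.10 and hg19 stand in the submitters' processing notes; how FPKM was computed is not stated there. Gene starts lay within 5000 bases of a GRCh38.p14 table for 91.4% of 17086 matched IDs, so positions are read as GRCh38. The table holds no counts. The smallest FPKM steps of low genes, read as 1 fragment and taken within 15%, put relative depth at 97.8% to 103% of the mean over libraries, if that reading holds.

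Values were analysed as log2(FPKM + 1) for the 11808 of 17123 genes with at least 1 FPKM in 3 of 9 libraries. One limma model of 3 groups (limma 3.58.1, R 4.3.3, mean-variance trend, 6 residual degrees of freedom) gave fold changes, with Benjamini-Hochberg adjustment over all genes tested and a threshold of 0.05. The pseudocount makes changes of low genes smaller. GC content came from GENCODE release 29 transcripts, and trends were removed per library with natural splines of 4 degrees of freedom. The model was tested on simulated data whose noise was independent between genes and between libraries. In the real libraries genes shift together, so that test cannot speak for the calls made here. Exact permutation of 3 libraries against 3 cannot go under p = 0.1.

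Named genes were the lysyl oxidases, the genes past the threshold, the next 8 by p per direction, up to 3 per class by p, the 8 farthest genes per knockdown library, those past the threshold once trends were removed, and the 3 most abundant genes of the extreme GC deciles. Some of these are summarised rather than printed. Members, lists and rules were chosen with earlier results of these data known. Alternatives were other scalings, filters, pseudocounts, library weights, a replicate block, trend removal and each library left out; those for the comparison with LOX siRNA, for the spread, and the values without control replicate 2 were added after the data were seen. One gene that the naming rule selects is not reported here.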

Additional observations from a re-analysis of the deposited data

How the results depend on the processing

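The count of 9 genes for LOXL1 siRNA against control was 83 with library weights (control replicate 2 weighing 0.296), 19 with length and GC trends removed, 14 with GC alone removed, and 6 to 14 with 1 library left out, the 14 being without LOXL1 siRNA replicate 3. It was 6 to 12 under the 9 other alternatives. The log2 fold change of LOXL1 was -0.78 without a filter, where its adjusted p of 0.0632 missed the threshold (limma), and -0.78 in the comparison as given. With each library left out, LOXL1, NPTXR, CDC23, AKIRIN1, VOPP1 and HAS2 passed in all 9 fits. For LOXL1 siRNA against LOX siRNA the count of 25 was 11 with quantile normalization, 8 without the mean-variance trend, 258 with library weights, 4 without a filter, 15 with the length trend removed and 5 to 56 with 1 library left out. The Spearman correlation of -0.48 with GC content was -0.24 with library weights, -0.37 without a filter, -0.53 at a mean of 5 FPKM or more, 0.0048 with length and GC trends removed, 0.0035 with GC alone removed, and -0.59 to -0.12 with 1 library left out. The median SD of 0.0566 was 0.0396 to 0.0566 with 1 library left out. The values under 0.0566 come from fits without 1 LOXL1 siRNA library. There the SD rests on fewer libraries, so its size cannot be compared directly with that of the full group. The causes were not tested, except that trend removal takes out the GC relation by construction.

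The share of lower genes at an unadjusted p under 0.05 (62.7%) was 52.4% with median-ratio scaling, 53.1% with quantile normalization, 48.1% with the length trend removed and 45.5% with length and GC trends removed. With the replicate number as a block the count was 6 for LOXL1 siRNA against control and 15 against LOX siRNA. Deviations of same-numbered LOXL1 siRNA and control libraries correlated at 0.0174, -0.0676 and -0.0568 across genes. These values gave no sign of pairing by number. They cannot show that the libraries were unpaired, since trends of single libraries, such as that of control replicate 2 with GC content, enter them too. Of 41 classes with 3 or more tested members, 16 kept the sign of their median under all 21 alternatives and 7 changed sign without control replicate 2. Of 32 named gene results 0 reversed. These genes were chosen by p in the same data, and all but MSMO1 had groups that did not overlap. Leaving out a library could not change the sign of such a gene. For those fits the count of 0 was therefore fixed in advance and is no sign of stability. Read counts were not used here, so no counting error is given, and the smallest change called for LOXL1 siRNA against control, with the settings as reported, was the -0.25 (log2) of MICB.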
